A study of Mus musculus with 14 samples.

Results

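Semaphorins, plexins, neuropilins, ephrins and Eph receptors are the ligands and receptors of a pair of guidance systems, and their RNA was followed in granule neuron progenitors (GNPs) of the mouse cerebellum with and without the chromatin remodeller Chd7. The members were all protein-coding genes whose symbol named a semaphorin, plexin, neuropilin, Eph receptor or ephrin. There were 53 such genes among the 41381 of the table, namely 7 class 3 semaphorins, 13 other semaphorins, 9 plexins, 2 neuropilins, 9 EphA receptors, 5 EphB receptors, 5 ephrin-A genes and 3 ephrin-B genes. The data were 14 RNA-seq libraries of freshly isolated GNPs from mice at postnatal day 7, purified on a Percoll gradient without separating the sexes. WT libraries (n = 5) came from mice labelled Chd7 wild type or Atoh1-Cre negative, which the study describes as carrying floxed Chd7 without Cre. Het libraries (n = 5) came from mice with Atoh1-Cre and 1 floxed Chd7 allele, and Hom libraries (n = 4) from mice with Atoh1-Cre and both alleles floxed. Atoh1-Cre acts in the granule cell lineage, so other cell types in the preparation would keep Chd7 in every group. These libraries do not give Chd7 by cell type or the share of GNPs in which the floxed alleles were lost. The strain is C56Bl6/J in the labels of some libraries and C57BL/6 in those of the rest, and the study's methods name C57BL/6N. The labels of Het 1, Het 2, Hom 1 and Hom 2 say only het or hom mutant, and the alleles given for them come from the study. All values are TPM, the abundance of a gene's transcripts as a share of a fixed total, which corrects for transcript length but keeps no record of read depth.

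Semaphorins are secreted or membrane-bound cues that steer growing axons and migrating neurons. Most membrane-bound semaphorins bind plexins directly, whereas most secreted class 3 semaphorins need a neuropilin as the binding partner of a plexin. Eph receptors are receptor tyrosine kinases that bind ephrins on neighbouring cells, with EphA receptors preferring the lipid-anchored ephrin-A proteins and EphB receptors the transmembrane ephrin-B proteins, and signals run into both contacting cells. In the developing cerebellum, members of both systems are known for roles in GNP proliferation, in the migration of granule neurons and in the sorting of mossy fibre axons.

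The purified cells carried the RNA of the granule lineage. All 10 granule lineage markers were detected, and their summed level was 3980 to 5580 TPM in WT, 4310 to 4810 TPM in Het and 3730 to 4790 TPM in Hom. Of these markers only Neurod1, a factor of differentiating granule neurons, was called in Hom (log2 change -0.55). Chd7 itself did not follow the labels in all libraries. It stood at 120.81, 151.68, 132.41, 203.25 and 272.06 TPM in WT 1 to 5, at 165.77, 181.3, 150.35, 149.36 and 136.77 TPM in Het 1 to 5, and at 172.49, 185.39, 149.87 and 125.63 TPM in Hom 1 to 4. In sequencing batch 1 (WT 1 to 3, Het 1 to 3, Hom 1 and 2) both Hom libraries lay above every WT library, with a log2 change of 0.41, whereas in batch 2 (the other libraries) they lay below, with a change of -0.77. A value summed over a whole gene does not show the loss of a part of it, so WT, Het and Hom are used here as the names of the labels. The labels do not say that libraries of a group came from separate animals, and p-values measure the spread between libraries.

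In libraries labelled WT, all classes were expressed, and plexins and membrane-bound semaphorins stood highest. The WT means of Plxnb2, a semaphorin receptor known for a role in GNP proliferation and migration, and of Sema6a, a transmembrane cue needed for granule cell migration, were 391 ± 21.8 TPM and 174 ± 55.4 TPM (SD, n = 5). The next levels were Sema7a, a lipid-anchored semaphorin, at 125 ± 12.8 TPM, Sema6c, a transmembrane semaphorin, at 117 ± 19.8 TPM, Plxna3, a plexin that partners neuropilins, at 112 ± 17.3 TPM, and Ephb2, an EphB receptor, at 106 ± 17.4 TPM. The ranges of Sema7a, Sema6c, Plxna3 and Ephb2 over WT libraries overlapped, and differences between these genes within libraries were not tested.

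By class, the summed WT means were 760 TPM for the 13 other semaphorins, 692 TPM for the plexins and 172 TPM for the EphB receptors. They were 64.9 TPM for ephrin-B genes, 42.7 TPM for ephrin-A genes, 38.7 TPM for EphA receptors, 27.2 TPM for class 3 semaphorins and 12.6 TPM for neuropilins. All 13 other semaphorins had a WT mean of at least 5 TPM, from 8.53 TPM for Sema5a upward. Only 2 of the 7 class 3 semaphorins did, Sema3d and Sema3g. The EphA receptors were low, with Epha7 highest at 10.8 ± 1 TPM and Epha1 lowest at 0.392 TPM. No member was at 0 in all libraries, and 50 of the 53 passed the filter for testing (4 or more libraries at 1 TPM or above). Epha1, Sema3b and Sema3e did not pass.

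**Figure D1:**
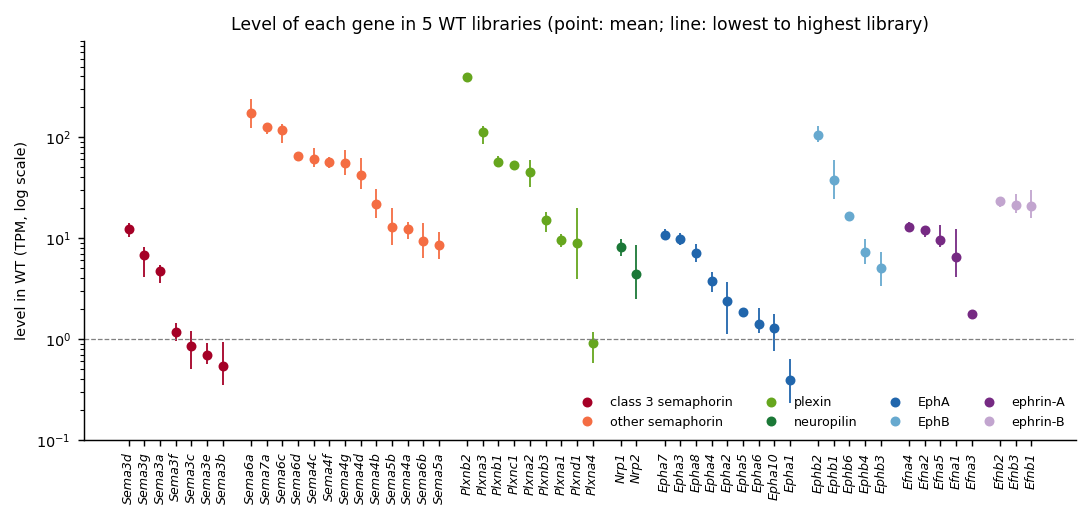
The mean TPM of each of the 53 genes over the 5 WT libraries is plotted on a log axis as a point, with a line from the lowest to the highest library, coloured by class, and the dashed line marks 1 TPM. Plxnb2 stands highest at 391 TPM, and the class 3 semaphorins and EphA receptors lie lowest among the larger classes, with no WT mean above 12.4 TPM.

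Libraries labelled Hom differed from WT at 8 members in the linear model (limma, adjusted p under 0.05 over all genes tested). Class 3 semaphorins Sema3a and Sema3d, EphA receptors Epha3, Epha6 and Epha7 and the ephrin Efnb2 fell, whereas receptors Epha8 and Ephb6 rose. That is 6 of 50 members lower (12%), beside 1.41% of the 17325 genes tested, and 2 of 50 higher (4%), beside 1.27%. Among the 6, Epha6 passed the filter for testing only through its WT libraries, which favours a call in the lower direction. The median log2 change over the 50 members was 0.03, beside 0.024 over all genes. Without WT 2, WT 3, WT 4 or Hom 1 the lower count was 2, and without WT 5 or Hom 3 it was 3. The higher count was 1 without WT 1, WT 4, WT 5, Hom 3 or Hom 4, and 3 without Hom 2. Epha3, Epha6, Epha7 and Sema3a also stand on the study's own list of genes lower in Hom GNPs, which was chosen on these libraries and is not independent evidence of their direction.

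Epha3, an EphA receptor that binds ephrin-A ligands, had the lowest adjusted p of the members and, with a pseudocount of 1, the largest fall on the log2 scale. With a pseudocount of 0.1, Epha6 fell more (-1.44, beside -1.38 for Epha3). Epha3 stood at 8.44, 9.75, 9.87, 9.54 and 11.17 TPM in WT 1 to 5, at 4.06, 7.4, 3.77, 4 and 5.11 TPM in Het 1 to 5, and at 3.88, 4.34, 3.04 and 3.49 TPM in Hom 1 to 4. Every Het and Hom library lay below every WT library, and Het 2 was the highest of the Het libraries. Means were 9.75 ± 0.974, 4.87 ± 1.51 and 3.69 ± 0.554 TPM (SD, n = 5, 5 and 4). The Hom change was -1.19 (SE 0.17) on the log2(TPM + 1) scale with a limma adjusted p of 0.00145, and it was -1.02 in batch 1 and -1.41 in batch 2. The gene (ENSMUSG00000052504) spans 320.6 kb of chromosome 16, from 63543534 to 63864175 on the minus strand of GRCm38. The call held when any single library was left out.

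Epha7, another receptor of ephrin-A ligands, was the most abundant EphA gene in WT and also fell. Its levels were 10.44, 11.51, 12.15, 9.9 and 9.93 TPM in WT, 9.01, 9.51, 7.5, 8 and 8 TPM in Het, and 8.26, 7.1, 5.77 and 8.23 TPM in Hom. The WT libraries did not overlap with either other group, while Het and Hom overlapped. The Hom change was -0.49 (SE 0.11, limma adjusted p = 0.0304), with -0.51 and -0.47 in batches 1 and 2. The call was lost on leaving out WT 2, WT 3, WT 4, WT 5, Hom 1, Hom 2 or Hom 3, 7 of the 14 single libraries. The gene (ENSMUSG00000028289) lies on chromosome 4 from 28813131 to 28967499 on the plus strand.

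Epha6 fell at a low level. It measured 1.14, 1.2, 2.03, 1.51 and 1.2 TPM in WT, 0.67, 0.49, 0.5, 0.58 and 0.82 TPM in Het, and 0.41, 0.35, 0.33 and 0.85 TPM in Hom. All WT libraries were above all others, and Hom 4 stood apart from the other Hom libraries. Every Het and Hom library was below 1 TPM, so Epha6 passed the filter for testing only through its WT libraries. A filter met only by the high group favours a call in the lower direction. With the filter of TPM above 0 in 4 libraries, Epha6 was called as well (limma adjusted p = 0.0165). The Hom change of -0.71 (SE 0.17, limma adjusted p = 0.0385) was -0.81 in batch 1 and -0.58 in batch 2, and the call held in only 2 of the 14 fits without 1 library, those without Het 2 or Hom 4. The pseudocount weighs on genes at this level, as the change at a pseudocount of 0.1 given above shows. The gene (ENSMUSG00000055540) is the longest of the called members, at 952 kb on chromosome 16 (59653483 to 60605531, minus strand).

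Epha8, an EphA receptor known for a role in the guidance of midbrain axons, moved the other way. It stood at 6.9, 7.25, 5.78, 6.71 and 8.69 TPM in WT, at 8.32, 9.08, 8.7, 7.92 and 10.82 TPM in Het, and at 12.58, 14.32, 11.62 and 13.07 TPM in Hom. Hom libraries lay above all WT and all Het libraries, and Het overlapped with WT. Means were 7.07 ± 1.06, 8.97 ± 1.12 and 12.9 ± 1.12 TPM (SD, n = 5, 5 and 4). The Hom change was 0.79 (SE 0.12, limma adjusted p = 0.00289), with 0.92 in batch 1 and 0.62 in batch 2, and it held without any single library. The gene (ENSMUSG00000028661) covers 27.4 kb of chromosome 4, from 136929419 to 136956816 on the minus strand.

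Ephb6, an EphB receptor whose kinase domain lacks catalytic activity, also rose. It measured 14.67, 17.43, 17.41, 17.53 and 16.44 TPM in WT, 18.02, 21.12, 18.89, 17.16 and 20.17 TPM in Het, and 20.36, 21.16, 26.34 and 30.71 TPM in Hom. All Hom libraries exceeded all WT libraries, and the 2 Hom libraries of batch 2 were the highest. The change was 0.51 (SE 0.11, limma adjusted p = 0.025), and it was 0.32 in batch 1 and 0.71 in batch 2. Leaving out WT 1, WT 4, WT 5, Hom 3 or Hom 4 ended it. The gene (ENSMUSG00000029869) lies on chromosome 6 from 41605482 to 41620509 on the plus strand.

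Among the ephrins, the ligands of these receptors, only Efnb2 was called. This transmembrane ligand binds EphB receptors and also Epha4. Its levels were 20.5, 24.81, 24.49, 22.24 and 23.46 TPM in WT, 24.08, 19.94, 22.12, 20.52 and 22.77 TPM in Het, and 17.45, 13.01, 14.39 and 16.19 TPM in Hom. WT and Het overlapped throughout, and all Hom libraries lay below both. The Hom change was -0.57 (SE 0.097, limma adjusted p = 0.00571), with -0.59 and -0.55 in batches 1 and 2, and it was kept without any single library. Against Het, the change was -0.50 (SE 0.097, limma adjusted p = 0.0454), and this call was lost whichever single library was left out. The gene (ENSMUSG00000001300) lies on chromosome 8 from 8617434 to 8661242 on the minus strand.

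Both called semaphorins were secreted class 3 proteins. Sema3a, a repellent of growing axons that signals through Nrp1 and A-type plexins, measured 4.78, 5.44, 5.22, 4.39 and 3.58 TPM in WT, 4.29, 2.68, 2.69, 2.2 and 2.8 TPM in Het, and 1.81, 2.49, 1.25 and 3.28 TPM in Hom. Hom and WT did not overlap, and Het 1 lay within the WT range. The change was -0.84 (SE 0.19, limma adjusted p = 0.0347), with -0.97 and -0.68 in batches 1 and 2. Leaving out WT 1, WT 2, WT 3, WT 4, Hom 1, Hom 2 or Hom 3 ended the call. The gene (ENSMUSG00000028883) spans 477.2 kb of chromosome 5, from 13125414 to 13602565 on the plus strand.

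Sema3d lies on the same chromosome (ENSMUSG00000040254, 12383385 to 12588948, plus strand). It stood at 12.54, 12.82, 12.36, 14.09 and 10.2 TPM in WT, at 4.43, 11.51, 4.83, 6.86 and 7.15 TPM in Het, and at 3.78, 8.82, 4.38 and 6.31 TPM in Hom. The WT libraries were above all Hom libraries, while Het 2 and Hom 2 were the highest of their groups and Het 2 reached into the WT range. The change was -1.02 (SE 0.25, limma adjusted p = 0.0491), with -0.99 and -1.05 in batches 1 and 2, and it was kept in 3 of the 14 fits without 1 library, those without Het 1, Het 2 or Hom 2. Het 2 also had the highest endothelial marker sum of all libraries, 521 TPM, and Hom 2 the highest of its group, 393 TPM. With marker levels in the model the Sema3d change was -1.38, and with Het 3 placed in batch 2 it was -1.01 and no longer called (limma adjusted p = 0.0535). Over all alternatives the limma adjusted p of Sema3d ran from 0.0065 to 0.332.

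**Figure D2:**
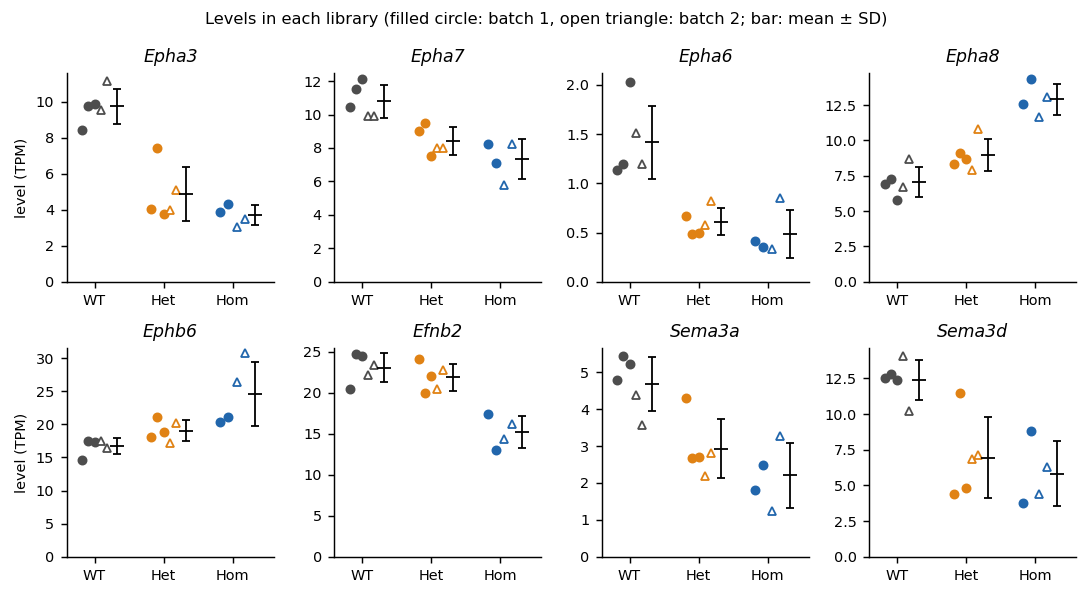
TPM of the 8 called genes in each library by label on axes from 0, with filled circles for batch 1, open triangles for batch 2 and bars for the mean ± SD (n = 5, 5 and 4). Hom and WT points do not overlap in any panel. The genes were chosen by their Hom calls in these same libraries, so this separation adds no support, and no share over all genes stands beside it. Epha6 was tested only through its WT level. Het points lie beside Hom for Epha3 and Epha6 but beside WT for Efnb2.

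The start regions of the members that changed were read from RefSeq (GRCm38.p6). A window of the 250 bases before a RefSeq start was found for 47 of the 53 members, including all 8 called genes. For Sema3a that start lies 271370 bases from the GENCODE end of the gene, so its window is inside the annotated gene. Shown are the windows of the gene with the lowest adjusted p (Epha3, chr16:63864176-63864425, minus strand), of the one with the larger rise (Epha8, chr4:136956817-136957066, minus strand) and of a called gene whose window holds few CpG dinucleotides (Sema3d, chr5:12382916-12383165, plus strand, whose RefSeq start lies 219 bases from the GENCODE end of the gene). CpG dinucleotides are in capitals.
Epha3: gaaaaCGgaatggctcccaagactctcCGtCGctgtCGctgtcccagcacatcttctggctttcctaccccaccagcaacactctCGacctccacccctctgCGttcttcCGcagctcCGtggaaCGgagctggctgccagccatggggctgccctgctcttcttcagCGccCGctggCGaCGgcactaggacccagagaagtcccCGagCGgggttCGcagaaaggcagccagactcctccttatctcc
Epha8: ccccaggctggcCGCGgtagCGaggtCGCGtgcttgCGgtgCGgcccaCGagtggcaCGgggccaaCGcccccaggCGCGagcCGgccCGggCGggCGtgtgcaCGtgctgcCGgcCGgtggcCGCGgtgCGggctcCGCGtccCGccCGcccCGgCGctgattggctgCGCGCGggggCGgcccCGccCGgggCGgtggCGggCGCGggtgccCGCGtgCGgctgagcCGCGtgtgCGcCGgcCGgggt
Sema3d: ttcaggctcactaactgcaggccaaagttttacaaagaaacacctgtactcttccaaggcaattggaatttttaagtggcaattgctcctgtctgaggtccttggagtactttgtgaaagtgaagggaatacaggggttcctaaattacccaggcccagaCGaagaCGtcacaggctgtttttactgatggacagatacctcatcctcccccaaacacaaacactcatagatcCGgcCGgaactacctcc
The windows hold 16, 46 and 4 CpG dinucleotides at a G and C content of 62.8%, 84.0% and 46.8%, beside medians of 6 and 52.4% over 32536 windows of all genes. A search on both strands for the E-box CAGCTG, the E-box CATATG and the E-box CAGATG matched 1 of the 9 windows of called genes, that of Epha6, and 28.1% of all windows. Those 9 include the Sema3a window inside its gene and overlapping windows of Epha7 with starts 14 bases apart, so they are not 9 separate sequences. Over all members, 13 of 61 windows matched, and no difference between these shares was tested. Genes that fell and genes that rose both included CpG-rich windows.

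The called genes that fell were mostly long. The 6 that fell spanned 43.8 to 952 kb, with a median of 263.1 kb, and the 2 that rose spanned 15 and 27.4 kb, beside a median of 28.8 kb for the 42 tested members that were not called. Of 21 tested members over 100 kb, 5 fell, none rose and 13 had a change below 0. The 5 include Epha6, the longest, which was tested only through its WT level, and that favours a call in the lower direction. Of 29 shorter members, 1 fell, 2 rose and 10 had a change below 0. Median WT levels were 9.75 and 12.9 TPM in the 2 sets. Over all genes tested, 4.52% of the 2170 spanning more than 100 kb were called lower and 2.9% higher, with 40.4% below 0, and 0.974% of the 14889 shorter ones were called lower and 1.04% higher, with 45.0% below 0. Calls were thus more frequent among long genes in the table at large, and these counts are a description with no test.

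**Figure D3:**
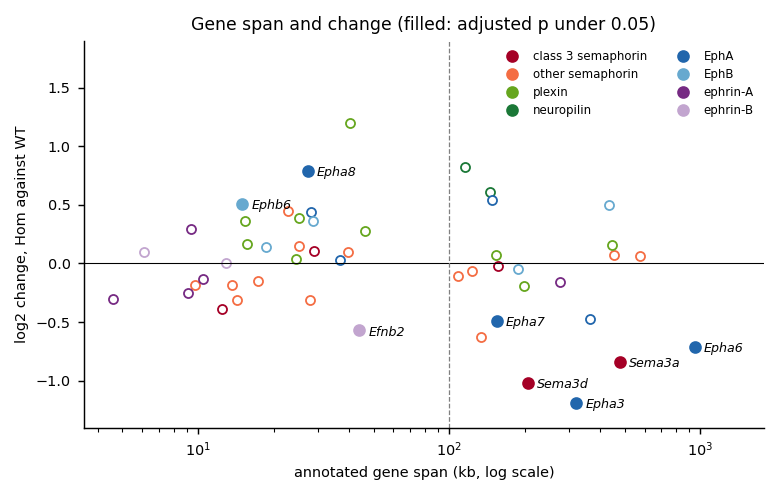
The log2 change in Hom against WT of the 50 tested genes is plotted against annotated gene span in kb on a log axis, coloured by class, filled where limma's adjusted p was under 0.05, with a dashed line at 100 kb. Of the 6 genes that fell, 5 lie right of the line, and both genes that rose lie left of it. The 5 include Epha6, which was tested only through its WT level.

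Of the other EphA receptors, Epha5 (Hom change -0.47, limma adjusted p = 0.17) stood in every Het and Hom library below every WT library, with group means of 1.85 ± 0.12, 1.19 ± 0.159 and 1.09 ± 0.448 TPM. Epha4, which binds both ephrin classes, was 3.78 ± 0.689 TPM in WT and 6.21 ± 2 TPM in Hom, and its change of 0.54 did not pass (limma adjusted p = 0.32). The EphA class thus held called genes in both directions, 3 lower and 1 higher of 8 tested, with Epha6 tested only through its WT level. The summed level of the class stayed between 26.2 and 41.8 TPM over all libraries. This sum was 35.3 to 41.1 TPM in WT and 30.6 to 41.8 TPM in Hom.

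EphB receptors other than Ephb6 did not pass the test. Ephb2, the most abundant, measured 88.55, 102.2, 91.43, 130.15 and 116.18 TPM in WT, 106.52, 94.24, 101.35, 115.03 and 118.86 TPM in Het, and 106.39, 86.89, 121.18 and 99.69 TPM in Hom. The 3 groups overlapped, with a Hom change of -0.051 (SE 0.083, limma adjusted p = 0.837). Ephb1 measured 24.26, 31.52, 26.71, 59.54 and 44.23 TPM in WT, 35.62, 50.05, 33.54, 58.97 and 45.19 TPM in Het, and 45.08, 61.91, 57.13 and 44.53 TPM in Hom. Its WT libraries differed by batch, and its Hom change of 0.50 (limma adjusted p = 0.256) was 0.93 in batch 1 and -0.025 in batch 2.

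The ephrin-A genes, ligands of the EphA receptors, did not pass the test, with Hom changes from -0.30 to 0.29. Efna4 was the highest, at 11.54, 12.96, 13.59, 14.51 and 12.06 TPM in WT, 15.3, 11.53, 11.68, 11.67 and 11.38 TPM in Het, and 10.79, 7.12, 12.78 and 11.53 TPM in Hom. Efna2 was at 10.16, 13.05, 11.9, 12.24 and 12.34 TPM in WT, 14.08, 9.88, 15.83, 12.53 and 12.67 TPM in Het, and 9.87, 8.07, 15.31 and 11.48 TPM in Hom. Both genes overlapped between all groups, with Hom changes of -0.30 (SE 0.14, limma adjusted p = 0.351) and -0.13 (SE 0.16, limma adjusted p = 0.759). Efnb3, a transmembrane ligand of EphB receptors, measured 17.84, 21.67, 18.36, 27.3 and 20.09 TPM in WT, 19.12, 26.98, 17.26, 26.1 and 23.5 TPM in Het, and 19.19, 24.72, 25.39 and 22.48 TPM in Hom. Its groups overlapped too, with a Hom change of 0.10 (SE 0.13, limma adjusted p = 0.783), beside the fall of Efnb2 of the same class.

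Membrane-bound and other semaphorins held no call in the limma model among 13 tested, with 3 at an unadjusted p under 0.05 (Sema6a, Sema4f and Sema4g). A Hom change below 0 was seen in 8 of the 13, beside 44.5% of all genes tested. Sema6a was the nearest, at 122.34, 143.36, 135.66, 231.27 and 236.6 TPM in WT, 135.41, 169.2, 120.93, 172.24 and 143.11 TPM in Het, and 98.53, 128.22, 119.9 and 96.89 TPM in Hom. The high WT libraries were the 2 of batch 2, and Hom 2 lay within the WT range. Its change was -0.63 (SE 0.17, limma adjusted p = 0.0648), with -0.25 in batch 1 and -1.11 in batch 2, and the difference between the batches did not pass (limma interaction -0.86, adjusted p = 0.143). The interaction of genotype with batch passed for 0 of the 50 members by limma at an adjusted p, and for 7 at an unadjusted p under 0.05 in Hom and 3 in Het. No share over all genes stands beside these counts, so they do not show whether the members differ from other genes in this. Sema7a measured 132.73, 135.05, 134.21, 107.65 and 114.7 TPM in WT, 164.35, 102.67, 189.54, 124.39 and 155.49 TPM in Het, and 177.13, 108.45, 241.16 and 181.12 TPM in Hom. Its Hom change was 0.45 (SE 0.21, limma adjusted p = 0.345), and Hom 2 lay within the WT range. Sema4f and Sema4g each had a change of -0.31 (limma adjusted p = 0.085 and 0.312). Some alternatives did call members of the class. Sema6a was called lower with median-ratio scaling, array weights or marker levels in the model and without WT 1 or Hom 2, Sema4f with quantile normalization and without Hom 3, and Sema7a higher with marker levels in the model. Over all alternatives the limma adjusted p ran from 0.00155 to 0.529 for Sema6a and from 0.0155 to 0.426 for Sema4f.

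Of the remaining class 3 semaphorins, Sema3g measured 7.93, 7.7, 8.12, 4.14 and 6.15 TPM in WT, 6.42, 9.06, 8.34, 4.67 and 10.86 TPM in Het, and 4.03, 3.84, 5.1 and 6.56 TPM in Hom. The groups overlapped, and its Hom change of -0.39 (SE 0.23) did not pass (limma adjusted p = 0.478). The Hom changes of Sema3c and Sema3f were -0.018 and 0.11. Summed over all 7 class 3 semaphorins, levels were 22.8 to 29.2 TPM in WT, 16.1 to 27.9 TPM in Het and 12.6 to 22.6 TPM in Hom. These sums contain the called Sema3a and Sema3d, so they do not show a fall of the remaining genes.

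The receptors of the semaphorins showed no limma call, with Plxnb2, Plxnd1, Nrp1 and Nrp2 at an unadjusted p under 0.05. The 9 plexins had Hom changes from -0.19 to 1.20, 8 of them above 0, and both neuropilins were above 0. Over all genes tested, 44.5% had a Hom change below 0 and the median was 0.024. Some of the 8 lay near 0, such as Plxnb1 (0.037) and Plxnc1 (0.076), and the direction of the class was not tested. Plxnb2 measured 376.33, 424.2, 391.06, 367.61 and 397.26 TPM in WT, 462.4, 398.85, 509.79, 399.17 and 553.97 TPM in Het, and 514.97, 384.42, 626.35 and 571.12 TPM in Hom. Hom 2 was within the WT range and the other 3 Hom libraries were above it, with a change of 0.39 (SE 0.13, limma adjusted p = 0.15) that was called without Hom 2. Plxna3 measured 114.62, 127.83, 125.96, 85.08 and 107.85 TPM in WT, 117.63, 131.48, 131.21, 84.9 and 122.05 TPM in Het, and 112.95, 107.65, 184.93 and 104.1 TPM in Hom. Hom 3 alone lay above the WT range, and the change was 0.17 (SE 0.18, limma adjusted p = 0.726).

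Plxnd1 and the neuropilins, also known as receptors of vascular endothelium, had the highest Hom changes of the family without passing. Plxnd1, a receptor of Sema3e whose values are shown in full because they were seen to be high, measured 3.89, 4.66, 4.81, 19.7 and 11.62 TPM in WT, 11.25, 28.83, 3.66, 12.38 and 20.48 TPM in Het, and 13.07, 22.95, 18.93 and 25.08 TPM in Hom (change 1.20, SE 0.44, limma adjusted p = 0.216). Nrp1, the Sema3a and VEGF co-receptor, measured 6.75, 8.59, 9.08, 9.8 and 6.61 TPM in WT, 9.78, 16.25, 5.97, 9.44 and 13.17 TPM in Het, and 11.14, 14.96, 10.57 and 15.75 TPM in Hom (change 0.61, SE 0.23, limma adjusted p = 0.229). Its Hom libraries all lay above WT. Nrp2 measured 2.48, 3.48, 3.3, 8.6 and 4.38 TPM in WT, 5.76, 10.19, 2.65, 6.5 and 10.21 TPM in Het, and 4.97, 10.81, 7.62 and 11.64 TPM in Hom, with overlapping groups (change 0.82, SE 0.32, limma adjusted p = 0.238).

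Endothelial markers moved with these receptors. The summed level of 8 endothelial markers, none at 0, was 29.2 to 244 TPM in WT, 22.6 to 521 TPM in Het and 126 to 393 TPM in Hom, with all 8 above 0 in Hom change (median 1.52), 7 at an unadjusted p under 0.05 and 0 called by limma. With the endothelial and Purkinje marker levels in the model, the Hom change was 0.16 for Plxnd1, 0.18 for Nrp2 and 0.23 for Nrp1 (limma adjusted p = 0.523, 0.558 and 0.425). Over all alternatives the changes ran from 0.16 to 1.76 for Plxnd1, 0.18 to 1.05 for Nrp2 and 0.23 to 0.71 for Nrp1, with limma adjusted p from 0.0864 to 0.561, 0.162 to 0.558 and 0.116 to 0.465. In the same fit Epha3 stood at -1.48, Efnb2 at -0.51, Epha7 at -0.55, Sema3d at -1.38 and Epha8 at 0.70, all still called, whereas Epha6 (-0.69), Sema3a (-0.87) and Ephb6 (0.48) were not. That fit also called Sema6a (-0.94, limma adjusted p = 0.00155) and Sema7a (0.83, limma adjusted p = 0.0297). In whole-preparation RNA, fewer cells of a type and less RNA per cell cannot be told apart.

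**Figure D4:**
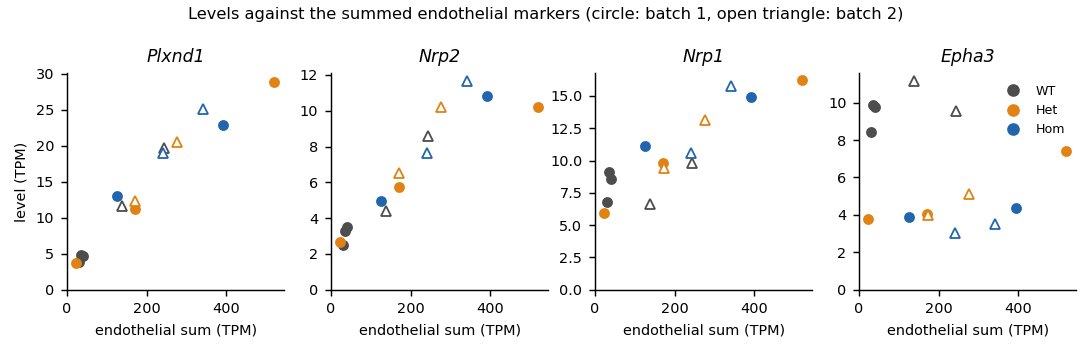
The TPM of Plxnd1, Nrp2, Nrp1 and, for comparison, Epha3 in each of the 14 libraries is plotted against the summed TPM of 8 endothelial markers, coloured by label, with circles for batch 1 and open triangles for batch 2. The receptors lie highest in libraries with high sums, with Plxnd1 running from 3.66 TPM at a sum of 22.6 to 28.83 TPM at 521. For Epha3, every WT library lies above every Het and Hom library, while Het and Hom overlap. Het 2 (7.4 TPM) and Hom 2 (4.34 TPM), with the highest sums of their groups, were also highest in Epha3. In WT this was not so, as WT 5 was highest in Epha3 and WT 4 in the sum.

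Other cell types also differed between libraries. Purkinje markers summed to 26.7 to 112 TPM in WT, with 79 to 112 TPM in WT 1 to 3, and to 30.3 to 58.7 TPM in Het and 26.9 to 41.8 TPM in Hom. Astroglial markers summed to 411 to 1770 TPM in WT, 548 to 1100 TPM in Het and 311 to 649 TPM in Hom, with a median Hom change of -0.86 and 0 of 7 called by limma, 5 of them at an unadjusted p under 0.05. Their part in the falls of Epha3, Epha7, Sema3a and Sema3d was not tested beyond the fit with endothelial and Purkinje levels.

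Libraries labelled Het had no called member against WT, in a contrast in which 0.00577% of all genes were called in either direction. At an unadjusted p under 0.05, limma gave 6 members lower, beside 2.88% of all genes, and 2 higher, beside 3.2%. The 6 were Epha3, Epha5, Epha6, Epha7, Sema3a and Sema3d, and the 2 were Epha8 and Plxnc1, a receptor of Sema7a (change 0.18). As given above, Epha6 was tested only through its WT level. In the Hom contrast the counts at this threshold were 10 lower, beside 6.42%, and 8 higher, beside 8.51%. Both contrasts share the WT libraries. Epha3 had the smallest adjusted p of these in Het, with a change of -0.90 (SE 0.16, limma adjusted p = 0.134) beside -1.19 in Hom. The Het and Hom changes were -0.38 and -0.47 for Epha5, -0.33 and -0.49 for Epha7, -0.58 and -0.71 for Epha6, -0.54 and -0.84 for Sema3a, -0.81 and -1.02 for Sema3d, 0.31 and 0.79 for Epha8, and -0.074 and -0.57 for Efnb2.

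Between Hom and Het, Efnb2 was the 1 member lower of 50, beside 0.277% of all genes, and no member was higher by limma at an adjusted p, beside 0.15%, while 4 stood lower (beside 3.13% of all genes) and 2 stood higher (beside 3.05%) where p was left unadjusted and had to be under 0.05. Besides Efnb2 and Epha8, these were Sema3g (-0.56), Sema4f (-0.25), Sema6a (-0.44) and Ephb6 (0.33). Epha8 differed by 0.48 (SE 0.12, limma adjusted p = 0.15), with every Hom library above every Het library. For Epha3, Epha6 and Epha7 the difference was -0.29, -0.14 and -0.17 (limma adjusted p = 0.941, 0.997 and 0.997), and none passed the test. After removal of the batch term, an exact Kruskal-Wallis test over the 3 labels, with all 252252 arrangements of the libraries, gave 7 members lower in Hom at an unadjusted p under 0.01, beside 2.22% of all genes, and 2 higher, beside 2.42%. These were the 8 called members, with Epha6 again tested only through its WT level, and Epha5 (exact p = 0.00284).

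**Figure D5:**
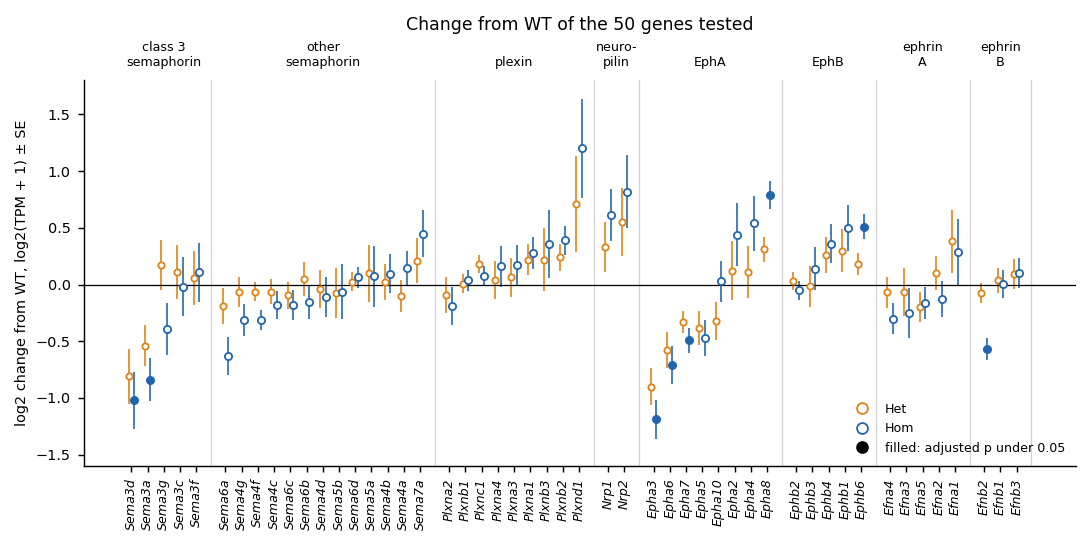
The log2 change from WT, on the log2(TPM + 1) scale with its SE, is plotted for Het (orange) and Hom (blue) for the 50 tested genes by class, filled where limma's adjusted p was under 0.05. Filled points are Hom only, 6 below 0 and 2 above, and the plexin and neuropilin points lie mostly above 0 without passing. Over all genes tested, 44.5% of Hom changes and 47.7% of Het changes were below 0.

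The other genes of the pathways were taken from lists of co-receptors and intracellular partners. Of 28 tested mediators of semaphorin and plexin signalling, 2 fell and 2 rose in Hom. Nrcam, an adhesion molecule that partners neuropilins, fell by 0.51 (limma adjusted p = 0.00185), and Cfl1, the actin-severing protein cofilin, fell by 0.20 (limma adjusted p = 0.039). Dpysl4, of the collapsin response mediator family, rose by 0.61 (limma adjusted p = 0.00497), and Mical2, an enzyme that oxidises actin, rose by 0.80 (limma adjusted p = 0.0119). The shares of all genes called are those of the same contrast given above, 1.41% and 1.27%. Of 27 tested mediators of Eph and ephrin signalling, 0 fell and Chn1, a Rac GTPase-activating protein known to act downstream of Epha4, rose by 0.38 (limma adjusted p = 0.0224). In Het, limma called 0 mediators of either list. At an unadjusted p under 0.05, limma gave 2 of the 28 and 2 of the 27 in either direction, beside 2.88% of all genes lower and 3.2% higher. The lists thus lay near the share of all genes. The median Hom change was 0.02 in the semaphorin list and 0.07 in the Eph list, beside 0.024 over all genes.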

How the data were processed

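Total RNA of GNPs from P7 mice was sequenced in 14 libraries (5 WT, 5 Het, 4 Hom). The authors deposited 1 table of TPM per gene, made with Bowtie 1.0.0 (single-end reads against Ensembl transcripts of mm10) and RSEM 1.2.15, per the submitters' processing notes and the study's methods. Each column sums to about 1000000, and the depth of single libraries is unknown, so no counting error was computed. A TPM is a share of a fixed total, so abundant genes shift all others. The study sequenced WT 1 to 3, Het 1 to 3, Hom 1 and Hom 2 as batch 1 and the other libraries as batch 2. The title of Het 3 is in the style of batch 2, and an alternative placed it there.

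The 17325 genes that reached 1 TPM in 4 or more libraries were fitted on the log2(TPM + 1) scale, which understates changes of low genes. The fit used limma 3.58.1 under R 4.3.3 (eBayes, trend by mean level) over all 14 libraries, with terms for genotype and batch. Its two-sided p-values were adjusted over all genes tested (Benjamini-Hochberg), and a gene was called at an adjusted p under 0.05. The script was tested on simulated data. The study's rank test was run as a Kruskal-Wallis test over all arrangements of the libraries, after removing the batch term in place of ComBat. That removal kept the labels in its model and the arrangements ignored batch, so its p-values are approximate. Gene positions came from GENCODE on GRCm38 and start regions from RefSeq. Alternatives were a different pseudocount, filter, scaling, batch treatment or weighting, marker levels as covariates, a block for replicate number, and leaving out libraries.

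Named with values in every library were called members, members on the study's list of genes lower in Hom, and the 2 highest members of each class in WT. Members with an unadjusted p under 0.05 were named with their change. Plxnd1 in every library, and Sema6c, were added after their values were seen. The members and lists were chosen with earlier results of these data known.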

Additional observations from a re-analysis of the deposited data

Results flagged for a closer look

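A single library stood far from the rest of its group in 12 of 150 sets of 4 or 5 libraries (50 members in 3 groups), by Dixon's test at the 95% level. Chance flags about 1 in 20 such groups. Among called members, Epha6 was at 0.85 TPM in Hom 4 and Sema3a at 4.29 TPM in Het 1, each the highest of its group. High single values also occurred for the semaphorins Sema3c (2.22 TPM in Het 2), Sema3f (2.95 TPM in Het 5 and 3.52 TPM in Hom 4) and Sema4a (14 TPM in Het 5), and for the plexins Plxna3 (184.93 TPM in Hom 3), Plxna4 (1.5 TPM in Het 5) and Plxnb1 (64.95 TPM in WT 2). Among ephrins, single values apart from their group were Efna3 at 2.37 TPM in Hom 4, Efna4 at 15.3 TPM in Het 1 and Efna5 at 13.4 TPM in WT 5.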

How the results depend on the processing

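Epha3 and Epha8 were called in Hom against WT in 27 of 29 alternatives each, Efnb2 in 25 of 29, Ephb6 in 19 of 29, Epha7 in 16 of 29, Sema3a in 14 of 28, Sema3d in 10 of 29 and Epha6 in 10 of 28, each with the same direction throughout. The count of 6 members lower was 3 with all genes above 0 TPM in 4 libraries, 2 with only the 2 genotypes compared, 0 in batch 1 alone and 0 in batch 2 alone, 1 with Hom 1 and Hom 2 left out (chosen after seeing the data), and 2 to 6 with each replicate left out in turn. The count of 2 higher was 1 in batch 1 alone, 0 in batch 2 alone, 1 with only the 2 genotypes, 1 with Hom 1 and Hom 2 left out, and 1 to 3 with each replicate left out in turn. With fewer libraries these fits have less power. In Het against WT, the count of 0 lower was 1 (Epha3) with array weights, 1 with marker covariates and 0 to 1 with each replicate left out in turn. The 1 member lower in Hom against Het became 0 with the TPM-above-0 filter, without a batch term, in batch 1 alone, in batch 2 alone, with the 2 genotypes only, with marker covariates, with Hom 1 and Hom 2 left out, and 0 with each replicate left out; the cause was not tested. With Het 3 placed in batch 2, 5 members were lower in Hom against WT and Sema3d lost its call. Ephb1 in Hom against WT reversed to -0.025 in batch 2 alone. Whether replicate numbers pair the libraries is not known. Correlations of the deviations of same-numbered libraries ran from -0.235 to 0.264, but none of differently numbered libraries stand beside them, so they cannot decide this. With the replicate number as a block, 1 member was lower (Epha3) and 1 higher (Epha8) in Hom against WT, and 0 lower in Hom against Het. Depth limits could not be computed from TPM.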
